A study of Homo sapiens with 16 samples.

Results

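The comparison described here set 451Lu melanoma cells that had been without dabrafenib for 72 h against the same cells kept on the drug. 451Lu is a human melanoma cell line with an activated BRAF gene, and the cells were 451Lu BR, a derivative that had become resistant to BRAF inhibition. The groups were taken from the sample labels and held 2 libraries each, 4 of the 16 libraries of the series. The other 4 libraries of this line, 2 at 24 h and 2 at 120 h off drug, entered the same fit, so that 8 libraries shared 1 estimate of the spread. On-drug cells were kept in 1 µM dabrafenib, an inhibitor of mutant BRAF, and in the off-drug groups DMSO took its place. The treatment notes name dabrafenib only, whereas the source name gives resistance to both dabrafenib and the MEK inhibitor trametinib. The dose used here is that of the treatment notes. All 4 groups shared the resistant derivative, the medium with serum and 1 sequencing lane. Whether the derivative was 1 clone, and whether both libraries of a group are from 1 culture, is not given in the sources used here. Hence the p-values reflect only how far these libraries differ, which may be technical. The groups used here hold no on-drug library taken at 72 h, so the effect of withdrawal and that of 72 h more in culture cannot be told apart.

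In the MAPK pathway a signal passes from RAS to RAF, MEK and ERK, and ERK then switches on genes that drive growth together with genes whose products damp the pathway again. Mutant BRAF keeps this pathway active in many melanomas, and BRAF inhibitors silence it. Cells that have adapted to the inhibitor often carry extra pathway capacity, and in such cells removal of the drug can raise ERK activity above the level they tolerate. Melanoma cells also move between a pigmented, MITF-high state and a less differentiated state with matrix, receptor and inflammatory genes. The gene groups below follow that order, from the pathway itself to its outputs, to cell identity, the cell cycle, secreted factors and metabolism.

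Libraries held 14097739 and 16447548 counts on drug and 9714190 and 10691515 counts at 72 h. Genes of the mitochondrial genome took 6.11% and 5.51% of counts on drug and 4.47% and 4.23% at 72 h. The 10 most abundant genes took 7.32% and 7.09% on drug and 12.1% and 11.2% at 72 h, where FN1 alone took 5.41% and 4.57%. Levels are CPM, counts scaled to library size with TMM factors, given for library 1 and library 2 of a group. Changes are fitted log2 fold changes ± SE, with adjusted p from edgeR's quasi-likelihood test (Benjamini-Hochberg over all genes tested, threshold 0.05). Of 13851 genes tested, 9371 passed (67.7%), 4742 of them higher at 72 h (34.2%) and 4629 lower (33.4%), with a median log2 fold change of -0.0023 over all genes. Without a scaling factor the same test called 3717 genes higher and 5942 lower and the median of all genes was -0.18, so the balance of rises and falls is relative to the scaling. At least 2-fold changes were called for 2132 genes higher and 1517 lower. The 31 gene lists described below hold 741 genes with a row in the table; 676 passed the filter on low counts and 65 did not, and a gene can stand in more than 1 list. Since these are bulk samples, fewer cells of a kind and less RNA per cell cannot be told apart.

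Genes that report ERK activity were much higher 72 h after the drug was removed. DUSP6 (ENSG00000139318, chromosome 12, 89347232 to 89353271; coordinates here and below are GRCh38) encodes a phosphatase that inactivates ERK and is itself switched on by ERK. It stood at 23 and 20.2 CPM on drug and 1157 and 1087 CPM at 72 h, 52.1-fold higher (5.70 ± 0.10 on the log2 scale, adjusted p = 1.25e-16). The groups did not overlap, as was the case for 84.2% of all genes tested. Its levels at 24 h, 538 and 444 CPM, lay between the groups, and at 120 h it had 1221 and 1146 CPM, a difference from 72 h of -0.08 (adjusted p = 0.484) that was not past the threshold. CCND1, which encodes cyclin D1, the partner of CDK4 and CDK6 in early G1, was at 505 and 514 CPM on drug and 5894 and 5738 CPM at 72 h, 11.4-fold higher. Between 24 and 72 h CCND1 still rose, by 0.93 ± 0.06 on the log2 scale, while its difference between 72 and 120 h, -0.05, did not pass (adjusted p = 0.502). For both genes, then, the libraries at 72 h stood apart from those on drug and at 24 h, and a difference from 120 h was not detected.

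Other outputs of the pathway followed. PHLDA1, a pleckstrin-domain protein induced by growth factors, was at 139.6 and 138 CPM on drug and 1599.6 and 1635 CPM at 72 h. IER3, an early response gene that modulates ERK signalling and survival, was at 22.5 and 25.8 and then 1272 and 1252 CPM. HMGA2, a chromatin protein of embryonic and transformed cells, was at 20.0 and 19.8 and then 412 and 416 CPM. None of these 3 genes overlapped between the groups, as for 84.2% of all genes tested, and their rises were 11.6-fold, 52.1-fold and 20.8-fold. EMP1 rose 3.33-fold, SH2B3, an adaptor that restrains cytokine receptors, 6.81-fold, and the sphingosine kinase gene SPHK1 5.44-fold. Of the 28 genes listed as ERK output, 24 were higher and 3 lower at 72 h, with a median log2 fold change of 2.70; over all genes 34.2% were higher and 33.4% lower. The list was not uniform. Among the PEA3 factors, which ERK activates in many cells, ETV1 rose 6.16-fold, ETV5 fell from 231 and 249 to 136 and 155 CPM (-0.72 ± 0.09), and ETV4 was at 50.1 and 50.01 CPM on drug and 47.6 and 58.0 CPM at 72 h (adjusted p = 0.493). EPHA2, an ephrin receptor, had the largest fall of the list, from 4.91 and 4.42 CPM on drug to 0.215 and 1.90 CPM at 72 h (-2.07 ± 0.41). Its libraries at 72 h differed, and its change was -1.30 without library 1 and -4.41 without library 2 at 72 h. EPHA4, another ephrin receptor, was lower, at 34.9 and 32.1 CPM on drug against 27.7 and 24.2 CPM.

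**Figure D1:**
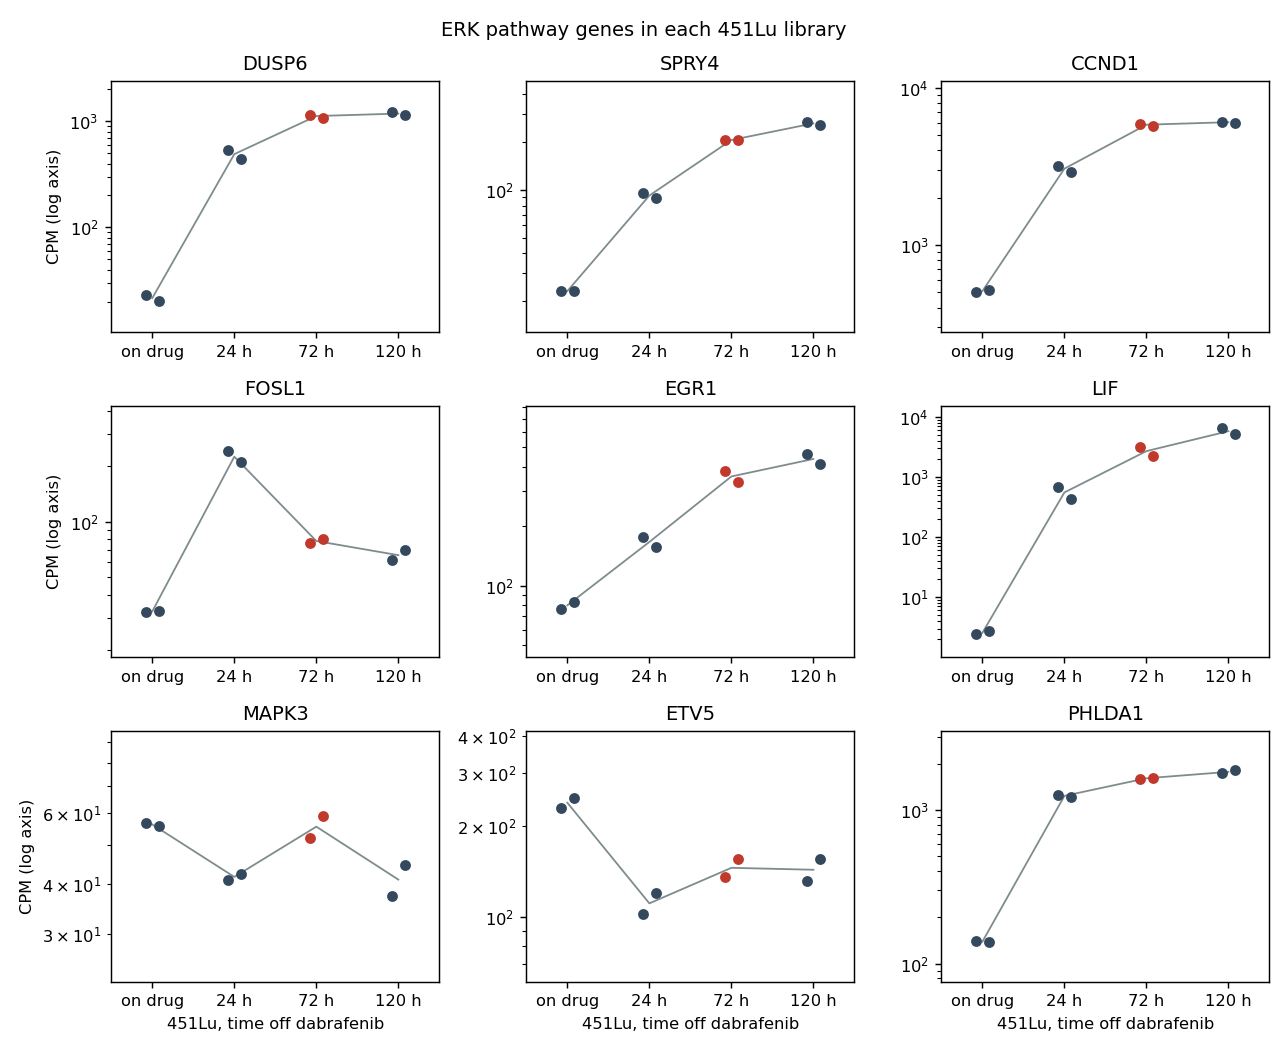
CPM on a log axis for 9 ERK pathway genes in each of the 8 451Lu libraries (points; red: 72 h; the grey line joins group means; the 4 times are spaced evenly, not to scale). DUSP6, SPRY4, CCND1, EGR1, LIF and PHLDA1 lie far above the on-drug level at 72 h, FOSL1 peaks at 24 h, ETV5 lies below and MAPK3 near its on-drug level.

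Most genes that brake the pathway rose with its outputs. SPRY4, a Sprouty protein that blocks signalling from receptors to RAF, was at 23.1 and 23.3 CPM on drug and 208 and 205 CPM at 72 h. SPRY1 was at 6.98 and 7.74 and then 161 and 185 CPM, and SPRY2 at 17.2 and 16.7 and then 159 and 156 CPM. The 3 Sprouty genes rose 8.89-fold, 23.5-fold and 9.28-fold, each with separate groups, as for 84.2% of all genes tested. The dual-specificity phosphatase genes DUSP4, DUSP5 and DUSP1 rose 5.35-fold, 22.4-fold and 11.1-fold. Rises of SPRED1 (2.28-fold) and SPRED2 (1.27-fold), which encode membrane-bound inhibitors of RAS to RAF signalling, were smaller. DUSP3 and DUSP16 were lower (-0.85 ± 0.07 and -0.93 ± 0.11 on the log2 scale). Over 18 genes of this feedback list 14 were higher and 3 lower, median 1.64. DUSP10, a phosphatase for the JNK and p38 kinases, had its highest levels at 24 h (66.4 and 52.9 CPM) and had come down to 39.3 and 34.5 CPM at 72 h, still above the 11.5 and 14.9 CPM on drug.

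The kinases and GTPases of the cascade moved far less. BRAF itself was at 68.5 and 69.2 CPM on drug and 129 and 122 CPM at 72 h, 0.86 ± 0.07 on the log2 scale, and MAP2K1, which encodes MEK1, rose 2.34-fold. MAPK3, the gene of ERK1, was at 56.7 and 55.6 CPM on drug and 52.1 and 58.9 CPM at 72 h, -0.02 ± 0.09 with adjusted p = 0.882, and its libraries overlapped. HRAS (-0.04 ± 0.10, adjusted p = 0.727) and MAP2K2 (-0.10 ± 0.08, adjusted p = 0.241) did not pass. The RAS GTPase-activating genes RASA1, RASA2 and NF1, which turn RAS off, rose 3.52-fold, 2.21-fold and 1.41-fold. Of 18 cascade genes 12 were higher and 1 lower, with a median of 0.40, against 2.70 for the outputs.

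AP-1 is a family of paired factors of the FOS and JUN type that act downstream of ERK and JNK. FOSL1 (ENSG00000175592, chromosome 11, 65892049 to 65900573) encodes FRA1, an AP-1 subunit that ERK both induces and stabilises. It was at 32.4 and 32.5 CPM on drug, 241 and 209.9 CPM at 24 h and 76.1 and 80.7 CPM at 72 h, so that its level at 72 h was 2.42-fold above that on drug and -1.53 on the log2 scale from that at 24 h (adjusted p = 1.94e-10). FOSB rose at both steps, from 3.04 and 2.93 CPM on drug through 19.5 and 14.5 CPM at 24 h to 48.1 and 46.3 CPM at 72 h. JUNB was at 33.1 and 38.6 CPM on drug and 174 and 161 CPM at 72 h, 4.66-fold higher, and FOS, JUN and JUND rose 1.70-fold, 2.07-fold and 1.71-fold. MAFG was at 60.9 and 63.9 and then 70.7 and 66.9 CPM, which did not pass (adjusted p = 0.0975). BATF, a small factor that pairs with JUN proteins, fell from 7.24 and 6.85 to 2.04 and 1.99 CPM (-1.80 ± 0.22). Of 12 AP-1 genes 10 were higher and 1 lower, median 0.77.

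Immediate-early genes, which answer growth signals without new protein synthesis, were high 3 days after withdrawal. EGR1 was at 76.3 and 82.9 CPM on drug and 379 and 334 CPM at 72 h, EGR2 at 1.10 and 1.16 and then 31.7 and 26.5 CPM, and EGR3 at 1.10 and 1.27 and then 69.6 and 79.1 CPM. The 3 zinc finger factors were 4.47-fold, 25.4-fold and 62.0-fold higher, and each rose further between 24 and 72 h, by 1.10, 1.73 and 1.34 on the log2 scale. ARC rose 12-fold and IER2 5.63-fold. MCL1, which encodes a short-lived survival protein of the BCL2 family, was at 145 and 145 CPM on drug and 873 and 907 CPM at 72 h. MYC, a growth-promoting factor and often a target of ERK signalling, was lower, at 165 and 175 CPM on drug and 102 and 105 CPM at 72 h (-0.71 ± 0.06, adjusted p = 5.45e-08), and lower again at 120 h (70.3 and 63.6 CPM). KLF10 peaked at 24 h with 127 and 123 CPM and stood at 79.0 and 68.5 CPM at 72 h, and KLF6 peaked with 279 and 279 CPM and stood at 226 and 254 CPM. Of 20 such genes 15 were higher and 3 lower, median 2.01.

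Genes of the melanocyte lineage check the cell type and were mostly lower at 72 h. On drug the cells expressed MITF, SOX10, PMEL, MLANA, DCT and TYR, so the lineage label held there; TYRP1 was low in all 8 libraries, at no more than 1.66 CPM. MITF (ENSG00000187098, chromosome 3, 69739435 to 69968337) encodes the factor that drives melanocyte differentiation. It was at 590.5 and 583 CPM on drug, 137 and 149.9 CPM at 24 h, 274 and 281 CPM at 72 h and 266 and 292 CPM at 120 h. Its change at 72 h was -1.08 ± 0.06 with adjusted p = 1.42e-10, and against 24 h it had risen again by 0.95 ± 0.06 (adjusted p = 4.62e-09). SOX10, which switches on MITF, was at 506 and 531 CPM on drug, 125 and 123 CPM at 24 h and 188 and 203 CPM at 72 h, a return of 0.66 ± 0.07 between 24 and 72 h. Both regulators were therefore lowest at 24 h and partly restored at 72 h, without reaching the on-drug range.

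Most pigment genes did not share this partial return: against 24 h, 3 of 24 were higher at 72 h and 12 lower, where 25.9% and 25.5% of all genes were. PMEL, which builds the fibrils of the melanosome, was at 8515 and 9081 CPM on drug, 1905 and 1956 CPM at 24 h and 344 and 456 CPM at 72 h. MLANA, a melanosome protein and melanoma antigen, was at 595 and 588 CPM on drug, 118 and 128 CPM at 24 h and 7.09 and 10.9 CPM at 72 h, 65.0-fold lower than on drug. DCT, a melanin synthesis enzyme, was at 123 and 137 CPM on drug and 0.645 and 1.71 CPM at 72 h, -6.74 ± 0.19, or -7.67 without library 2 at 72 h. From 24 to 72 h PMEL, MLANA and DCT changed by -2.27, -3.76 and -2.33 on the log2 scale (DCT by -3.23 without library 2 at 72 h), in the interval in which MITF and SOX10 rose. TYR, the rate-limiting enzyme of melanin synthesis, was at 267 and 268 CPM on drug, 21.1 and 28.3 CPM at 24 h and 24.6 and 41.3 CPM at 72 h, and its change after 24 h did not pass (0.44, adjusted p = 0.0673), though it did without library 2 at 24 h (0.65) or library 1 at 72 h (0.75). SLC45A2, OCA2 and BCAN were 19.5-fold, 23.1-fold and 16.6-fold lower than on drug. In all, 23 of 24 pigment and melanosome genes were lower at 72 h, with a median of -2.44. The 1 member that rose, BCL2A1, at 43.6 and 42.4 CPM on drug and 246 and 258 CPM at 72 h, makes a BCL2 relative that protects against cell death. CDK2 (ENSG00000123374, chromosome 12, 55966769 to 55972784) fell 7.03-fold, but it lies inside the interval of PMEL (ENSG00000185664, chromosome 12, 55954105 to 55973317), and with the strand setting not given the counts of the 2 genes cannot be told apart.

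The regulators of the lineage divided, with 6 higher and 9 lower of 15 and a median of -1.08. KIT, the receptor for stem cell factor, fell from 134 and 140.1 CPM to 9.56 and 11.5 CPM and SNAI2 from 221 and 228 to 77.1 and 79.9 CPM. TFAP2C, LEF1 and ZEB2 rose 21.8-fold, 2.47-fold and 1.91-fold, PAX3 rose 1.36-fold and MC1R, the receptor for melanocyte-stimulating hormone, 1.42-fold.

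**Figure D2:**
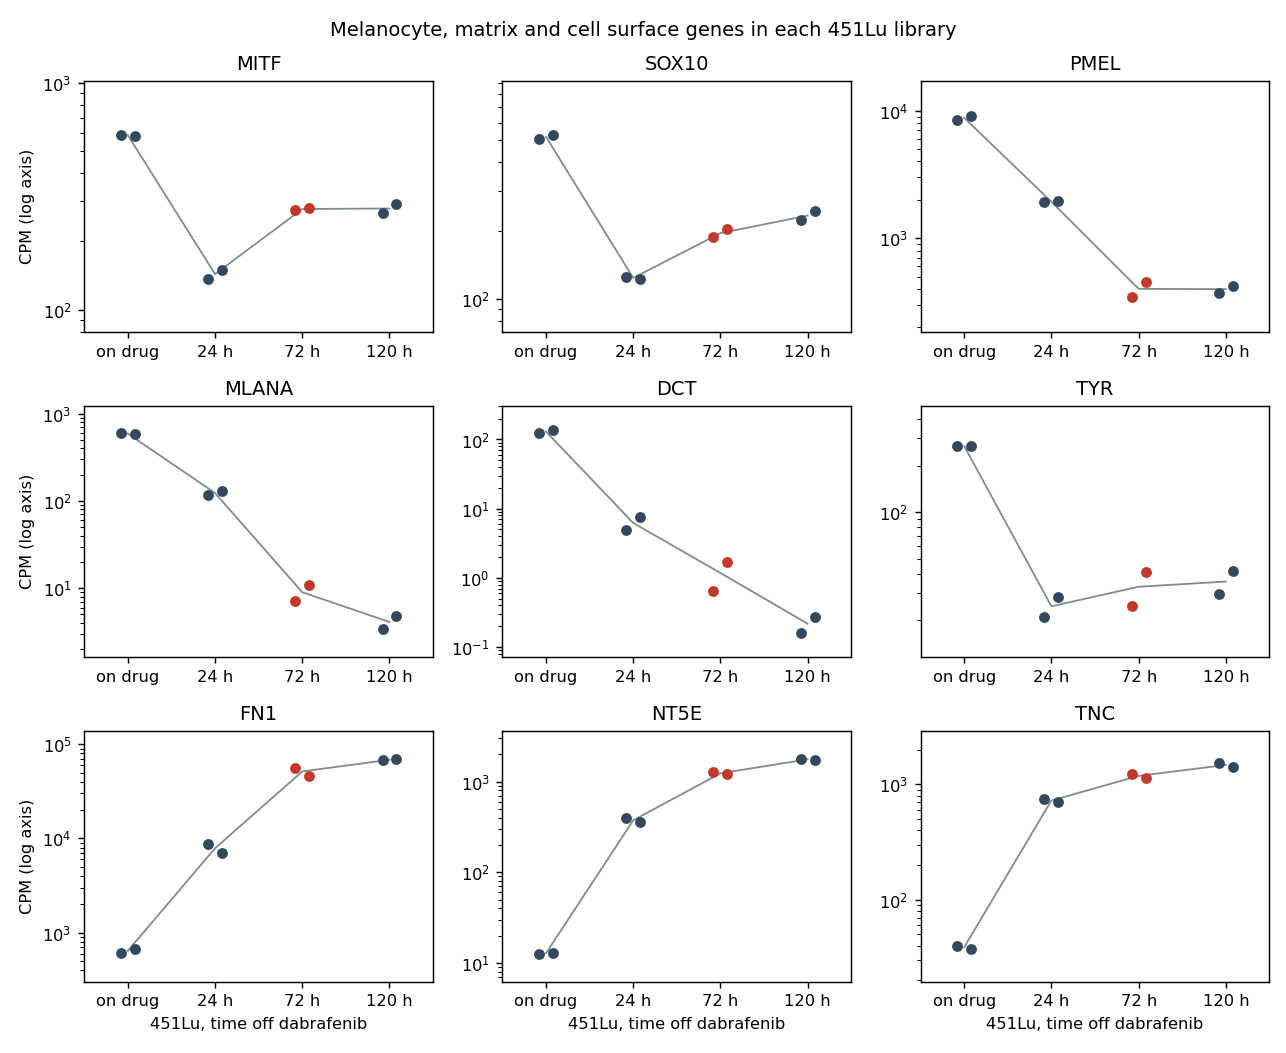
CPM on a log axis for 6 melanocyte genes and 3 matrix or cell surface genes in each 451Lu library (points; red: 72 h; grey line: group means; times spaced evenly, not to scale). MITF and SOX10 are lowest at 24 h, PMEL, MLANA and DCT fall on to 72 h, and FN1, NT5E and TNC rise from on drug to 72 h.

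MITF binds the M-box, TCATGTG, in promoters of pigment genes. The 250 bases before the start of each gene in RefSeq (GRCh38.p14) were searched on both strands, and 6 of the 19 pigment and melanosome genes with an entry held it (31.6%), against 2.58% of 27305 promoters of the same length. These were TYR, GPR143, TYRP1, GPNMB, BCL2A1 and SLC24A5, and 5 members had no entry. The M-box was also in 2 of 17 ERK output promoters (11.8%), SPRY1 and SPRY2, and in 1 of 13 melanocyte regulators (7.69%). SPRY1, SPRY2 and BCL2A1 rose at 72 h, so it was not confined to genes that fell. A match is a run of letters and not a measured binding site. Promoters of 3 genes that fell are shown because they hold the M-box and were lower at 72 h than on drug. Between 24 and 72 h the change of TYR did not pass. SLC24A5 (112 and 105 CPM on drug, 10.8 and 15.1 CPM at 24 h, 9.67 and 10.2 CPM at 72 h) differed by -0.36 from 24 h (adjusted p = 0.0955), which did not pass either, but did without library 1 at 24 h (-0.60). GPNMB (936 and 973, then 521 and 519, then 313 and 327 CPM) fell further (-0.70 ± 0.05 on the log2 scale). The promoters are written 5′ to 3′ in the direction of the gene with the M-box, or its reverse complement, in capitals, and lie at chr11:89177625-89177874 (TYR, plus strand), chr15:48120740-48120989 (SLC24A5, plus strand) and chr7:23246525-23246774 (GPNMB, plus strand).
TYR: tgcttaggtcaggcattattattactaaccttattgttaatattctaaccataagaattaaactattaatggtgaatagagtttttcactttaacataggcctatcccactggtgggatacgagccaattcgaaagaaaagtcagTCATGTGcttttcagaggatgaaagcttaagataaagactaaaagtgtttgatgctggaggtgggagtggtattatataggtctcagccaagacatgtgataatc
SLC24A5: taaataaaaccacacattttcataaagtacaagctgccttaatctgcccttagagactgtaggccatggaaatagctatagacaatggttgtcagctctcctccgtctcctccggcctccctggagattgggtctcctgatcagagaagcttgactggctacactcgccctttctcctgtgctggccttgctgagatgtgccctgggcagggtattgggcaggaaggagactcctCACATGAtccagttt
GPNMB: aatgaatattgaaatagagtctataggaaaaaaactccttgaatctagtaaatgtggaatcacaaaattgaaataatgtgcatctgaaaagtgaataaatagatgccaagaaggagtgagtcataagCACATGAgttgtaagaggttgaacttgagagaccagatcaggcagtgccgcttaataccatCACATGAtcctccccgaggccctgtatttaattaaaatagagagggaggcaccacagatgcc
The M-box began 105 bases before the start in TYR and 15 bases before it in SLC24A5, while GPNMB held it at 123 and at 62 bases before the start.

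Matrix and adhesion genes were among those with large rises. FN1 (ENSG00000115414, chromosome 2, 215360440 to 215436172) encodes fibronectin, the main adhesive protein of the provisional matrix. It was at 611 and 673 CPM on drug, 8761 and 6981 CPM at 24 h and 56486 and 46279 CPM at 72 h, 80.0-fold higher than on drug (6.32 ± 0.12, adjusted p = 2.38e-16). TNC, a matrix glycoprotein of neural crest and wounds, was at 40.0 and 37.4 CPM on drug and 1238 and 1129 CPM at 72 h. In neither gene did the groups overlap, as for 84.2% of all genes tested. NT5E, the surface enzyme CD73 that makes adenosine, was at 12.7 and 12.9 CPM on drug and 1267 and 1202 CPM at 72 h, 96.6-fold higher. PLAUR, the receptor of urokinase, was at 15.1 and 14.8 and then 843 and 829 CPM, and the hyaluronan receptor gene CD44 at 176 and 181 and then 1632 and 1509 CPM.

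Collagen VI genes rose together, COL6A1 9.31-fold and COL6A2 11.6-fold, while COL6A3 went from 0.775 and 1.16 CPM to 528 and 372 CPM. LOXL2, a collagen cross-linking oxidase, was at 1.55 and 1.44 CPM on drug and 142 and 126 CPM at 72 h. MMP1, the interstitial collagenase, was at 18.6 and 16.7 CPM on drug and 3463 and 2194 CPM at 72 h, and TIMP1, an inhibitor of such proteases, at 26.4 and 24.8 and then 1795 and 1204 CPM. Library 1 at 72 h was the higher for both genes, and both libraries lay above those on drug. SPP1, which encodes osteopontin, was at 0.775 and 0.718 CPM on drug, 292 and 226 CPM at 24 h, 318 and 227 CPM at 72 h and 134 and 123 CPM at 120 h, so that its 24 and 72 h libraries overlapped (0.07, adjusted p = 0.667, or 0.29 and past the threshold without library 2 at 72 h) and those at 120 h lay below (72 h against 120 h 1.08 ± 0.13, adjusted p = 9.68e-06). CDH1, the gene of E-cadherin, an epithelial adhesion protein also listed among the markers of other cell types, had the largest fall of the list, from 9.30 and 11.2 CPM on drug to 0.107 and 0.379 CPM at 72 h (-5.30 ± 0.37, or -6.50 without library 2 at 72 h). PLAT, TIMP2 and MMP2 were lower than on drug (-1.83, -1.24 and -1.22 on the log2 scale). Of 33 mesenchymal and matrix genes 28 were higher and 5 lower, median 3.54. The other 9 listed genes, among them COL3A1, COL4A1, COL5A1 and the urokinase gene PLAU, did not pass the filter on low counts.

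Integrins, the receptors that hold cells to matrix, and laminins changed with the same sign in most cases. ITGA3, ITGA5 and ITGB3 rose 55.2-fold, 29.9-fold and 15.9-fold, and ITGB1, the shared beta chain, went from 302 and 294 to 1656 and 1426 CPM. ITGA11, a collagen receptor chain, had 0.388 and 0.221 CPM on drug, 0.697 and 0.416 CPM at 24 h and 40.8 and 29.9 CPM at 72 h, and rose between 24 and 72 h (5.93 ± 0.25, adjusted p = 2.16e-11). ITGA1, another collagen receptor chain, showed the same order with 0.323 and 0.221, 0.418 and 0.831 and then 8.38 and 12.1 CPM. LAMB3 and LAMB1 rose 26.4-fold and 4.02-fold. The 4 lower genes were 3 laminin alpha chains and ITGAV, the alpha chain of vitronectin receptors (-0.48 ± 0.06 on the log2 scale). LAMA1 went from 343 and 357 CPM on drug to 133 and 135 CPM at 72 h, LAMA5 was lower (-1.22 ± 0.21 on the log2 scale), and LAMA3, with 3 counts at 72 h, was lower by a ratio of 21.7-fold (95% counting interval 7.23 to 107), its fitted change of -4.35 becoming -4.98 without library 1 at 72 h. Of 24 integrin and laminin genes 20 were higher and 4 lower, median 2.23.

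Genes known as YAP and TEAD targets, which respond to tension and cell shape, were higher in 16 of 18 cases and lower in 2, median 1.97. WWTR1, which encodes the YAP relative TAZ, was at 77.8 and 73.8 CPM on drug and 487 and 519.7 CPM at 72 h. CTGF, a classical target also called CCN2, was at 17.9 and 20.1 CPM on drug, 124 and 111 CPM at 24 h, 72.7 and 82.7 CPM at 72 h and 18.0 and 21.9 CPM at 120 h, so that it was highest at 24 h and back near its on-drug level at 120 h. AMOTL2 and TEAD4 fell (-1.40 and -0.76 on the log2 scale). In TGF-beta signalling 12 of 22 genes were higher and 6 lower, median 0.90: the ligand genes TGFB1 and TGFB3 rose 13.1-fold and 5.22-fold, the receptor genes TGFBR1 and TGFBR2 6.09-fold and 3.37-fold, and SMAD3 and the inhibitor SMAD7 5.13-fold and 4.68-fold. Of the ID genes, targets of the BMP branch, 3 fell. ID3 was at 46.9 and 40.7 CPM on drug and 2.90 and 3.22 CPM at 72 h, ID2 and ID4 were lower (-1.29 and -0.93 on the log2 scale), and ID1 did not pass (-0.09 ± 0.21, adjusted p = 0.718).

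Markers of the neural crest and of undifferentiated melanoma were higher in 14 of 16 cases and lower in 1, median 2.84, but several stayed at low levels. AXL, a receptor kinase linked to drug tolerance, was at 0.194 and 0.166 CPM on drug and 16.2 and 11.4 CPM at 72 h. NGFR, the neural crest receptor CD271, was at 0.323 and 0.166 and then 7.84 and 7.30 CPM. PDGFRB was at 0.323 and 0.276 and then 30.3 and 28.4 CPM. In all 3 genes the libraries of the groups did not overlap, as for 84.2% of all genes tested. EGFR was at 0.194 and 0.111 CPM on drug and 0.322 and 0.853 CPM at 72 h, below 1 CPM in all 4 libraries. Its call (1.95 ± 0.82, adjusted p = 0.0461) was lost without library 1 on drug (2.34), library 2 on drug (1.58) or library 2 at 72 h (1.03). RXRG, a retinoid receptor of a neural crest-like drug-tolerant state, fell from 30.2 and 32.3 to 3.65 and 2.94 CPM.

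Genes of dividing cells were lower at 72 h. All 30 genes of G2 and mitosis were lower at 72 h than on drug, with a median of -2.45, and 34 of 36 replication and S phase genes were lower and none higher, median -1.45. At 24 h the mitotic list had been near the on-drug level, with 7 genes higher and 7 lower (median -0.05). Of the S phase genes 6 were higher and 18 of 36 already lower at 24 h (median -0.26). Over all genes 29.2% were higher and 24.9% lower at that time. MKI67, the proliferation antigen Ki-67, was at 435 and 427 CPM on drug, 396 and 451 CPM at 24 h, 55.3 and 63.4 CPM at 72 h and 3.37 and 3.65 CPM at 120 h. TOP2A, the topoisomerase of replicating cells, was at 346 and 313, 274 and 313, 40.5 and 56.9 and then 3.29 and 4.84 CPM at the same times. PLK1, a mitotic kinase, was at 123 and 122, 132 and 133, 13 and 16.3 and then 1.45 and 2.28 CPM. For these 3 genes the 24 h libraries lay close to the on-drug libraries, while those at 72 h were far below both and still above those at 120 h. MKI67 changed by -2.83 ± 0.08 between 24 and 72 h and stood 4.08 ± 0.13 above its 120 h level.

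Against 24 h, all 30 mitotic and all 36 S phase genes were lower at 72 h, where 25.5% of all genes were. Against 120 h, 30 of 30 and 33 of 36 were higher, where 16.1% of all genes were. MCM2, a subunit of the replicative helicase, was at 269 and 285 CPM on drug, 184 and 169.7 CPM at 24 h and 62.2 and 70.1 CPM at 72 h. RRM2, which supplies deoxynucleotides, rose first, from 291 and 286 to 700.1 and 721 CPM, and stood at 207 and 215 CPM at 72 h. CCNE1, the G1/S cyclin, was at 11.4 and 11.5 CPM on drug and 13.5 and 11.5 CPM at 72 h and did not pass (adjusted p = 0.422). The genes of the mitotic transcription factor FOXM1 and of survivin, BIRC5, fell 9.60-fold and 7.56-fold.

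**Figure D3:**
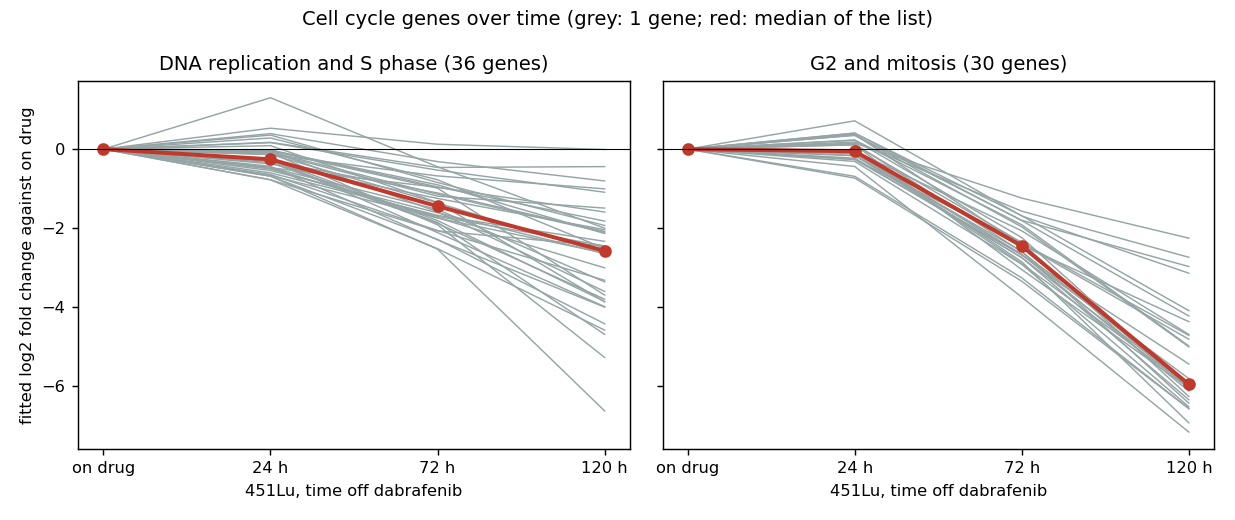
Fitted log2 fold change against on drug at 24, 72 and 120 h for each tested gene of the 2 cell cycle lists (grey lines: 1 gene; red: median of the list; times spaced evenly). The medians are -0.26 (S phase) and -0.05 (G2 and mitosis) at 24 h and -1.45 and -2.45 at 72 h. They are lower again at 120 h, when 37.3% of all genes were higher than on drug and 36.6% lower.

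Several CDK inhibitor genes rose over the same days. CDKN1A (ENSG00000124762, chromosome 6, 36676460 to 36687339), the gene of p21, was at 2.91 and 2.38 CPM on drug, 139 and 117 CPM at 24 h, 334 and 304 CPM at 72 h and 603 and 506 CPM at 120 h, 121-fold higher at 72 h than on drug (6.92 ± 0.14, adjusted p = 7.21e-16). CDKN2B, the gene of p15, was at 4.20 and 4.09 CPM on drug and 104 and 100.5 CPM at 72 h, and CDKN2A rose 4.35-fold. CDKN1B, the gene of p27, was lower (-0.31 ± 0.07 on the log2 scale), and so was CDK4 (-1.20 ± 0.07). Among p53 target genes PLK3, GDF15 and MDM2 rose 4.61-fold, 2.48-fold and 1.52-fold. CCNG1, BBC3 and BAX were lower (-1.33, -0.91 and -0.49 on the log2 scale). Over 31 genes of D cyclins, CDK inhibitors and p53 targets 19 were higher and 8 lower, median 0.54.

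In the BCL2 family, which sets the threshold for cell death, 7 of 14 genes were higher and 3 lower, median 0.18. The share called in either direction, 71.4%, was close to the 67.7% of all genes. That median ran from 0.0005 to 0.57 over the alternatives tried. On the pro-survival side MCL1 and BCL2A1 rose 6.15-fold and 5.86-fold and BCL2L1, the gene of BCL-XL, 1.91-fold, whereas BCL2 fell from 20.5 and 19.0 to 6.45 and 7.58 CPM. On the side that promotes death PMAIP1, the gene of NOXA, went from 29.8 and 29.2 to 195 and 222 CPM and BMF from 1.94 and 3.59 to 6.23 and 10.5 CPM. BCL2L11, the gene of BIM, a protein that ERK marks for breakdown, was at 23.9 and 24.5 CPM on drug and 23.2 and 24.8 CPM at 72 h (-0.01 ± 0.10, adjusted p = 0.932).

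All 16 tested cytokine and chemokine genes were higher at 72 h, with a median of 6.14, or 5.85 when the 3 genes with no counts on drug are set to their lower bound. LIF (ENSG00000128342, chromosome 22, 30240447 to 30246851) encodes a secreted factor that signals through gp130. It was at 2.39 and 2.71 CPM on drug, 671 and 438 CPM at 24 h, 3134 and 2267 CPM at 72 h and 6463 and 5139 CPM at 120 h. IL11, which uses the same receptor chain, was at 0.388 and 0.166 CPM on drug and 87.8 and 89.2 CPM at 72 h, 8.32 ± 0.19 on the log2 scale, or 8.97 without library 1 on drug. CXCL8, the neutrophil chemokine interleukin 8, was at 7.95 and 6.52 CPM on drug, 123 and 107 CPM at 24 h, 339 and 278 CPM at 72 h and 1126 and 664 CPM at 120 h. In these 3 genes each step in time was higher than the one before it, in every library. CCL2, the monocyte chemokine, was absent from the on-drug counts and reached 44.0 and 27.4 CPM at 72 h, a rise of at least 394-fold against a floor of 3 counts over the 2 on-drug libraries. IL1B had 0.775 and 0.608 CPM on drug and 475 and 174 CPM at 72 h, and its change of 8.86 became 7.97 without library 1 at 72 h. At 120 h 10 of the 16 were higher still, where 16.6% of all genes were lower at 72 h than at 120 h. The 6 other listed genes with a row did not pass the filter on low counts.

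AP-1 sites, TGANTCA, are among the best known elements of cytokine promoters. Searched in the same windows on both strands, the site was found in 3 of 15 cytokine and chemokine genes with an entry (20%), IL11, IL1A and CXCL8, and in 2 of 26 mesenchymal and matrix genes (7.69%), PLAUR and POSTN. The share over all 27305 promoters was 6.6%. Elsewhere among the genes searched, the site was in EMP1 and CCL7, which rose, and in GPNMB, LAMA3 and LINC01531, which fell. The promoters of IL11, CXCL8 and PLAUR are shown since these genes rose and held the site. They lie at chr19:55370464-55370713 (IL11, minus strand), chr4:73740319-73740568 (CXCL8, plus strand) and chr19:43670170-43670419 (PLAUR, minus strand), are written 5′ to 3′ in the direction of the gene, and carry the AP-1 site in capitals.
IL11: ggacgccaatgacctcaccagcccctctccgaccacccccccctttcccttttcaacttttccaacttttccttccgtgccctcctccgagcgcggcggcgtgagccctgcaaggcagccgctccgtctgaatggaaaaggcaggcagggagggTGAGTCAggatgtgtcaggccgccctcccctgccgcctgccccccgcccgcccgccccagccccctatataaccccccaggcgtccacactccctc
CXCL8: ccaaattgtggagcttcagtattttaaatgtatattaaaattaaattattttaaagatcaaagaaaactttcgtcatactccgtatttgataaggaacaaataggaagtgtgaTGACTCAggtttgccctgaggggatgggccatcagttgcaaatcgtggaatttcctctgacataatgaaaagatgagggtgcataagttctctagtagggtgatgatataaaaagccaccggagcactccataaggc
PLAUR: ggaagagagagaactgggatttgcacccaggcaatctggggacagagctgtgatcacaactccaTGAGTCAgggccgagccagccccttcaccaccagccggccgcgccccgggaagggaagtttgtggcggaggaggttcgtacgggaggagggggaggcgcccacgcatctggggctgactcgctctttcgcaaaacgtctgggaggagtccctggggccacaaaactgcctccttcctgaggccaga
The site began 96, 137 and 186 bases before the start of the gene in IL11, CXCL8 and PLAUR. The ETS core, CCGGAA, was present in 4 of 17 ERK output promoters with an entry (23.5%) and in 14.8% of all promoters. The same letters were in 11 of 30 promoters of DNA replication and S phase genes (36.7%), which fell, in 22.2% for integrins and laminins, 21.1% for pigment genes and 20.8% for G2 and mitosis, so that 1 list had a larger share than the ERK outputs and 3 had shares near theirs.

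Genes of NF-kB, the factor behind many cytokine genes, and of its feedback rose as well. TNFAIP3, which encodes the inhibitor A20, was at 10.3 and 10.9 CPM on drug, 25.2 and 24.8 CPM at 24 h, 41.1 and 42.3 CPM at 72 h and 68.3 and 60.9 CPM at 120 h. NFKBIA, the inhibitor IkB-alpha, was at 21.9 and 21.0, 37.1 and 31.4, 37.9 and 36.6 and then 94.4 and 75.9 CPM, and ICAM1, an adhesion molecule induced by NF-kB, at 126 and 136, 256 and 238, 1337 and 798 and then 5406 and 4075 CPM. All 3 genes were highest at 120 h. BIRC3 and RELB rose 18.7-fold and 3.45-fold by 72 h, whereas NFKB1 was lower (-0.66 ± 0.08 on the log2 scale). Of 17 genes 13 were higher and 3 lower at 72 h than on drug, median 1.51. Lower at 72 h than at 120 h were 15 of them, where 16.6% of all genes were.

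Growth factor genes were higher in 15 of 20 cases and lower in none, median 4.57, which did not move with the 4 genes without counts on drug at their bound. VEGFA, the main angiogenic factor, was at 55.3 and 62.8 CPM on drug and 1138 and 1141 CPM at 72 h. HBEGF, a ligand of EGFR, was at 8.21 and 8.68 and then 89.3 and 80.6 CPM, and STC1, a secreted glycoprotein hormone, at 2.26 and 3.48 and then 1875 and 1340.2 CPM. PDGFB, without counts on drug, stood at 0.209 and 0.416 CPM at 24 h and 9.67 and 10.2 CPM at 72 h, a rise of at least 112-fold, and that of FGF1 was at least 138-fold. Among receptor tyrosine kinases 12 of 21 were higher and 8 lower, median 0.47. FGFR1 rose from 26.7 and 26.2 to 199.8 and 189 CPM and the collagen receptors DDR1 and DDR2 rose 3.90-fold and 2.11-fold. ERBB3, the partner receptor common in melanocytes, fell from 108 and 107 to 20.7 and 32.2 CPM, and MET, MERTK and TYRO3 were lower (-0.62, -0.69 and -0.76 on the log2 scale). IGF1R did not pass (-0.03 ± 0.08, adjusted p = 0.72).

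Interferon response genes were higher in 21 of 32 cases and lower in 6, median 0.65. IFIT1 and IFIT2, which bind viral RNA, were highest at 24 h. IFIT1 was at 4.65 and 5.69 CPM on drug, 44.8 and 47.8 CPM at 24 h, 14.2 and 16.7 CPM at 72 h and 6.18 and 7.48 CPM at 120 h, and IFIT2 at 12.1 and 10.1, 68.3 and 68.8, 39.0 and 42.1 and then 14.2 and 14.7 CPM. Both were on the way down at 72 h but above the on-drug range. IRF1 rose 6.66-fold, and IFI16, a DNA sensor, fell from 587 and 544 to 227 and 223 CPM. For antigen presentation by MHC class I, 11 of 18 genes were higher and 3 lower, median 0.46. HLA-B was at 13.2 and 11.8 CPM on drug and 35.8 and 43.9 CPM at 72 h, HLA-C at 169.7 and 172 and then 315 and 298 CPM, and NLRC5, a transactivator of these genes, at 0.194 and 0.387 and then 6.23 and 6.45 CPM. The peptide transporter genes TAP1 and TAP2 went the other way, lower (-0.70 and -1.23 on the log2 scale). HLA genes resemble each other closely, so the division of reads between them is uncertain.

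**Figure D4:**
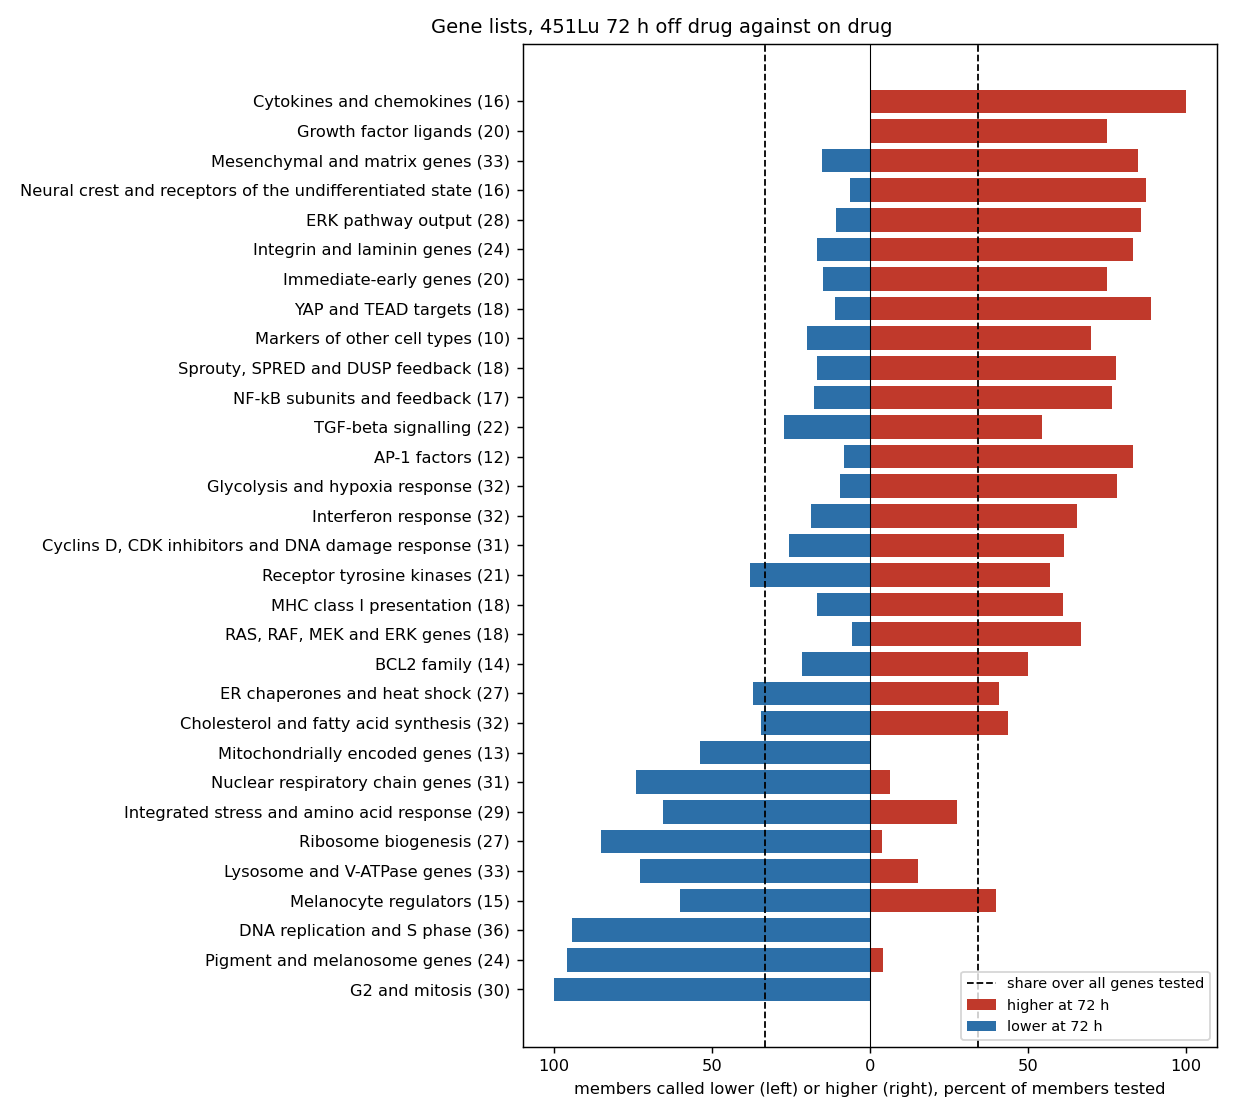
Percent of tested members called higher (red, right) and lower (blue, left) at 72 h against on drug for each of the 31 gene lists, with the number tested in brackets and dashed lines at the shares over all genes, 34.2% and 33.4%. Cytokines reach 100% on the right and G2 and mitosis 100% on the left, while cholesterol synthesis and ER chaperones lie near the dashed lines on both sides. The label with DNA damage response stands for the list with p53 target genes.

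Sterol synthesis genes were lower at 24 h and higher again at 72 h. At 24 h, 22 of 32 genes of cholesterol and fatty acid synthesis were lower than on drug and 2 higher, where 24.9% and 29.2% of all 13851 genes were (54.1% changed in either direction). At 72 h 20 were higher than at 24 h and none lower, where 25.9% of all genes were higher. Also 20 were higher than at 120 h, where 16.1% of all genes were. Against the mean of 24 and 120 h, 21 were higher and none lower, where 11.8% of all genes were higher and 8.7% lower. HMGCS1, an early enzyme of the mevalonate pathway, was at 27.1 and 28.4 CPM on drug, 15.6 and 16.2 CPM at 24 h, 41.3 and 39.1 CPM at 72 h and 24.3 and 22.4 CPM at 120 h. MSMO1, a later enzyme of cholesterol synthesis, was at 37.2 and 34.5, 22.8 and 27.1, 69.2 and 70.3 and then 41.8 and 45 CPM. In both genes both libraries at 72 h lay above the other 6 of the line. INSIG1, a sterol-sensing brake on the pathway, rose 3.75-fold over on drug, STARD4 4.51-fold and SQLE 3.55-fold. Against on drug the list showed 14 higher and 11 lower, median 0.06, close to the background, with SCD, DHCR7 and LSS among the lower genes (-1.18, -1.06 and -1.45 on the log2 scale). That median ran from -0.12 to 0.07 over the alternatives tried, with the negative value where no scaling factor was used. The count higher than at 120 h ran from 0, in the test against a 1.5-fold change, to 23.

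Glycolysis and hypoxia genes were higher in 25 of 32 cases and lower in 3, median 0.72. PKM, the pyruvate kinase of tumours, was at 3526 and 3651 CPM on drug and 9525 and 9135 CPM at 72 h, and the glucose transporter genes SLC2A1 and SLC2A3 rose 4.20-fold and 4.84-fold. NDRG1, induced by hypoxia and by differentiation, was at 17.2 and 23.3 and then 658 and 755 CPM. LDHB, which favours lactate use, was lower (-0.81 ± 0.05 on the log2 scale), while LDHA rose 1.72-fold.

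Most genes for making ribosomes fell. Of 27 genes 23 were lower and 1 higher, median -0.58, and 26 were lower than at 24 h, where 25.5% of all genes were. NCL, the gene of nucleolin, was at 1637 and 1611 CPM on drug, 1448 and 1468 CPM at 24 h and 903 and 881 CPM at 72 h, and NPM1, which encodes nucleophosmin, at 1374 and 1359.7, 1254 and 1304 and then 743 and 760.1 CPM. Of 31 nuclear genes of the respiratory chain 23 were lower and 2 higher, median -0.41, the lowest of them NDUFS7 with -0.94 ± 0.08. Of the 13 protein genes of the mitochondrial genome 7 were lower and none higher, median -0.28, and this count ran from 2, in the test against a 1.5-fold change, to 11, with no scaling factor; MT-ND1 was at 1741 and 1399 CPM on drug and 995 and 812 CPM at 72 h.

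Lysosome genes, many of them under the control of MITF relatives, were lower in 24 of 33 cases and higher in 5, median -0.63. The proteases divided: CTSK and CTSD fell from 492 and 499 to 132 and 142 CPM and from 784 and 819.9 to 285 and 292 CPM, whereas CTSB rose from 376 and 389 to 1478 and 1327 CPM and CTSL from 58.1 and 57.8 to 623 and 491 CPM. CTSB and CTSL also act outside the cell on matrix. NPC1, the lysosomal cholesterol exporter, rose 2.15-fold.

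Genes of the integrated stress response, through which ATF4 raises amino acid supply, were lower in 19 of 29 cases and higher in 8, median -0.55. PHGDH and PSAT1, the first enzymes of serine synthesis, went from 512 and 531 to 164 and 160.3 CPM and from 177 and 175 to 53 and 55.3 CPM, and ATF4 was lower (-0.55 ± 0.06 on the log2 scale). ASNS, asparagine synthetase, was at 193 and 201 CPM on drug, 54.2 and 53.5 CPM at 24 h, 122 and 112 CPM at 72 h and 172 and 171 CPM at 120 h. CEBPB and DDIT4 rose 3.38-fold and 2.61-fold. Among ER chaperones and heat shock genes 11 of 27 were higher (40.7%) and 10 lower (37%), near the 34.2% and 33.4% of all genes. Their median of 0.07 changed sign under some alternatives (-0.11 to 0.08). Genes of the ER proteins HSPA5, HSP90B1 and DNAJB9 rose 1.67-fold, 1.65-fold and 2.40-fold, while the cytosolic and mitochondrial chaperone genes HSP90AA1, HSPA8 and HSPD1 were lower (-0.91, -0.51 and -0.85 on the log2 scale).

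Among the genes with the largest fitted rises were KCNN4, CCL2, PECAM1, the non-coding genes AC112721.2 and AC112721.1, CCL7, EDARADD, FGF1, TNFSF10, LIF and PTGS1. KCNN4, a calcium-activated potassium channel, was without counts on drug and stood at 11.8 and 8.06 CPM at 24 h and 114 and 111 CPM at 72 h, a rise of at least 1257-fold. EDARADD, a death domain adaptor, was at least 174-fold higher and TNFSF10, the death ligand TRAIL, at least 128-fold, with 14.1 and 9.19 CPM at 72 h. CCL7 was at least 178-fold higher, and its libraries at 72 h differed, with 23.2 and 9.48 CPM, so that its fitted change of 10.70 became 9.99 without library 1. PTGS1, the gene of cyclooxygenase 1, had 1 count on drug. It stood at 34.5 and 33.6 CPM after 72 h off drug, a ratio of 1143 (95% counting interval 204 to 45208), and its fitted change of 9.75 became 9.02 without library 1 on drug and 11.69 without library 2. The 2 non-coding genes are neighbours on chromosome 2 and were at 19.8 and 13.4 and at 14.4 and 12.5 CPM at 72 h, with no counts on drug.

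Among the largest falls were LINC01531 and PLCH1-AS1, which had no counts at 72 h and were at least 106-fold and 68.6-fold lower. GALNT3, a Golgi enzyme that starts O-glycans, was at 129 and 128 CPM on drug, 0.628 and 0.748 CPM at 24 h and 0.537 and 0.474 CPM at 72 h. ESRP1, the epithelial splicing regulator, was at 62.6 and 57.0 CPM on drug and 0.645 and 0.758 CPM at 72 h, and DENND2D at 57.6 and 58.7 and then 0.537 and 0.758 CPM. All 3 had fallen to under 4 CPM by 24 h. The other 7 of these 12, among them CFAP61, PRDM7, AC009495.3, RP11-876N24.4, DCT and IRF4, were at 10.5 to 137 CPM on drug and at 0 to 1.71 CPM at 72 h, levels at which leaving out 1 library at 72 h moved the fitted fall by over 1.5 times in each of the 6 named, to values between -5.71 and -10.30 on the log2 scale. In CPM the largest rises were those of FN1, PKM, CCND1, VIM, VGF, GAPDH, FLNA and SLC5A3, and the largest falls those of PMEL, MT-RNR2, MT-ND4, EEF1A1, PABPC1, CAPG, HSP90AA1 and MT-CYB. The call of MT-ND4 (-0.28) was lost without library 1 on drug (-0.22, adjusted p = 0.079). VGF, a secreted neuropeptide precursor, was at 306 and 309 CPM on drug and 4720.1 and 4899.6 CPM at 72 h, VIM, the intermediate filament vimentin, at 2129 and 2224 and then 7205 and 7738 CPM, and the actin-capping gene CAPG at 1406 and 1438 and then 242 and 276 CPM.

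The 72 h libraries stood between those of 24 and 120 h along the main axis of variation. On the first principal component of the 8 libraries (77.8% of the variance) the on-drug libraries lay at -104 and -103, those at 24 h at -23.3 and -27.9, those at 72 h at 49.9 and 41.0 and those at 120 h at 86.1 and 80.4. Between 24 and 72 h 7126 genes changed (51.4%), 3589 higher and 3537 lower (2985 and 4290 without a scaling factor). Between 72 and 120 h 4531 differed (32.7%), 2234 higher and 2297 lower at 72 h (3396 and 1500 without a scaling factor), or 2851 without library 2 at 72 h. The largest rises after 24 h were those of IL1B, ITGA11, TNFSF10, UNC13A, PDGFB, TFPI2, CCL2 and CCL3L3. UNC13A, a priming factor of vesicle release, was at 2.02 and 1.41 CPM at 24 h and 84.0 and 62.8 CPM at 72 h. TFPI2, a matrix-bound protease inhibitor, was at 6.90 and 5.24 and then 269 and 122 CPM, with the 2 libraries apart; its change against on drug, 8.33, became 7.65 without library 1 at 72 h. The largest falls after 24 h were those of MLANA, KIF20A, ZNF850, PLK1, NEIL3, FAM83D, NEK2 and KIF18B, of which KIF20A, PLK1, FAM83D, NEK2 and KIF18B serve mitosis. KIF20A was at 89.5 and 104 CPM at 24 h and 7.84 and 11.4 CPM at 72 h.

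A smaller set had its extreme at 72 h. Both 72 h libraries lay above the other 6 of the line in 5.53% of genes tested and below them in 5.36%. Against the mean of 24 and 120 h on the log2 scale 2833 genes departed (20.5%), 1628 higher and 1205 lower. Without library 1 at 72 h the count was 1748, and without library 2 it was 1478. Among genes whose 72 h libraries lay outside the other 6, the largest departures upwards were those of CCL3, SPOCK1, S100A2, IGFBP5, S100A6, LMOD3, PTPN22 and ANXA1. S100A6, a calcium-binding protein of growing and mesenchymal cells, was at 11.1 and 12.9 CPM on drug, 375.2 and 332 CPM at 24 h, 2257 and 2419 CPM at 72 h and 1486 and 1703 CPM at 120 h, 1.64 ± 0.06 from the midpoint of its neighbours. ANXA1, an anti-inflammatory phospholipid-binding protein, was at 1.74 and 1.77, 29.7 and 21.1, 63.0 and 63.6 and then 19.4 and 19.8 CPM, and the matrix proteoglycan gene SPOCK1 at 2.33 and 2.21, 6.55 and 5.24, 39.0 and 39.5 and then 20.0 and 19.7 CPM. CCL3, a chemokine, was at 8.79 and 6.65 CPM at 24 h, 149 and 132 CPM at 72 h and 94.0 and 64.5 CPM at 120 h; it is near-identical to CCL3L3, so the division of their reads is uncertain. In these 4 genes both libraries at 72 h lay above the other 6, as the rule that took them required. CCL3's change against on drug, 8.98, became 9.63 without library 1 on drug, and that of LMOD3, 5.40, became 6.06.

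By the same rule the largest departures downwards were those of FAM110A, SLC7A11, PIF1, FAM173B, SCUBE2, CDAN1, MCF2L and TMEM99. SLC7A11, the cystine importer that feeds glutathione, was at 308 and 256 CPM on drug, 325 and 321 CPM at 24 h, 82.0 and 86.6 CPM at 72 h and 119 and 118 CPM at 120 h, -1.21 ± 0.07 from the midpoint (adjusted p = 1.4e-08). PIF1, a DNA helicase of dividing cells, was at 11.8 and 11.8, 12.6 and 12.1, 4.30 and 4.17 and then 8.35 and 6.66 CPM. SCUBE2, a secreted protein that releases hedgehog ligands, was at 29.2 and 30.5, 7.53 and 7.98, 3.65 and 3.32 and then 6.42 and 5.84 CPM. Over all genes tested, 257 were called at least 2-fold higher than the mean of 24 and 120 h and 22 at least 2-fold lower.

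**Figure D5:**
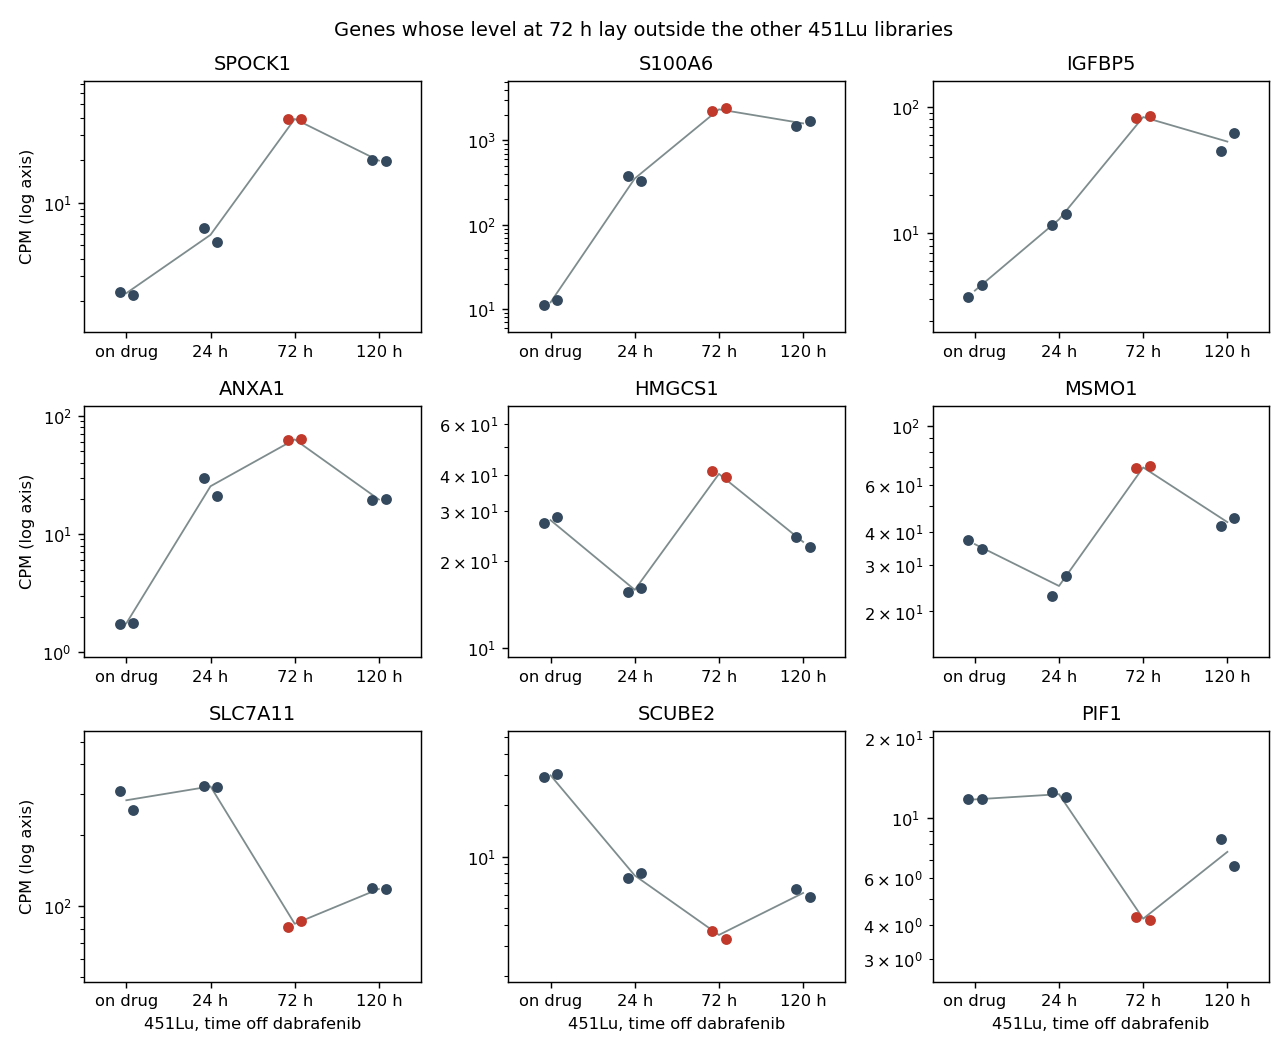
CPM on a log axis in each 451Lu library for 6 genes with their highest level at 72 h and 3 with their lowest (points; red: 72 h; grey line: group means; times spaced evenly, not to scale). Both 72 h points lie outside the other 6 in each panel.

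Markers of other cell types (24 listed, 16 with a row) were read beside these results. PTPRC, EPCAM and ALB, which define leukocytes, epithelial cells and hepatocytes, had no counts in any of the 8 libraries. Of 10 tested markers 7 were higher and 2 lower at 72 h, median 1.73. PECAM1, an endothelial adhesion molecule, was without counts on drug and stood at 1.19 and 1.91 CPM at 24 h, 25.0 and 19.9 CPM at 72 h and 111 and 111 CPM at 120 h, while the endothelial marker VWF was at 0.775 and 1.05 CPM on drug and 0.859 and 0.663 CPM at 72 h (adjusted p = 0.578). LUM, a proteoglycan of fibroblasts, fell from 145 and 132 to 10.4 and 10.3 CPM and KRT18, of simple epithelia, rose 2.21-fold. The summed level of the 16 markers was 176 and 167 CPM on drug and 123 and 114 CPM at 72 h. LUM and KRT18 were the most abundant on drug. LUM held 145 and 132 CPM of the sum on drug and 10.4 and 10.3 CPM of it at 72 h. The fall of LUM exceeded that of the sum, so the sum of the other markers was higher at 72 h. The part of such cells in the results above was not tested.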

How the data were processed

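RNA-seq was done on 16 libraries of 2 melanoma lines, 8 of them 451Lu. Per the submitters' processing notes, reads were processed with TopHat2 2.1.0 and Bowtie 1.0.0, with GRCh38 named as the build. The deposited values are raw read counts per gene for 30813 genes. Not given in the sources used here were the counting tool, the annotation release and the strand setting.

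Counts were fitted with edgeR 4.0.16 (R 4.3.3, limma 3.58.1): filterByExpr (minimum count 10, total 15), TMM scaling, 4 groups as 1 factor, quasi-likelihood F test, Benjamini-Hochberg over 13851 genes, threshold 0.05. Each SE was obtained by dividing the fitted change by the root of its F statistic. Groups without counts were set to a floor of 3 counts over the 2 libraries. Ratios from 1 to 3 counts carry 95% Clopper-Pearson counting intervals, which cover counting error only. The procedure was tested on simulated data. 451Lu library totals ran from 9714190 to 16447548 counts.

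The comparison, its members and the 31 gene lists (797 entries, 785 matched) were chosen with earlier results of these data known. Genes are named by rule, and some genes the rule took are not reported here. The rule took the 12 largest fitted rises and falls at 72 h with a mean of at least 5 CPM, the 8 largest differences in CPM in each direction, and the 3 largest rises and falls of each list with other members as examples. It also took the 8 largest values in each direction against 24 h and against the mean of 24 and 120 h, in the last case only genes whose 72 h libraries lay outside the other 6. Alternatives were RLE or no scaling, mitochondrial genes left out, no filter, DESeq2 1.42.0, a 1.5-fold threshold, a replicate block, other sets of libraries and each library left out. Promoters are RefSeq sequences (GRCh38.p14).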

Additional observations from a re-analysis of the deposited data

Results flagged for a closer look

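Of 676 tested list members, 40 differed from on drug in opposite directions at 24 h and at 72 h. Both changes, and the difference between 72 and 24 h, were past the threshold. Of the 40, 25 were higher than on drug at 24 h and lower than on drug at 72 h, and 15 ran the other way. The same rule was not counted over all 13851 genes tested, so the 40 cannot be set against a background. Of all genes, 54.1% differed from on drug at 24 h and 67.7% at 72 h. The 10 with the largest later change are given here and were picked for that size after their values were seen. Passing the test of 72 h against 24 h was part of the selection. The direction of that later change followed from the opposite changes against on drug, so neither is a separate result.

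Among the 7 mitotic genes, CCNB1, the cyclin of mitotic entry, was at 112 and 109.8 CPM on drug, 137 and 150.2 CPM at 24 h and 17.9 and 22.7 CPM at 72 h, a later change of -2.81 on the log2 scale. The later changes were -2.41 for UBE2C, -2.32 for CENPE, -2.22 for KIF23, -2.16 for AURKA, -2.15 for TTK and -2.09 for BUB1. All 7 ended at 72 h below the on-drug level, which the selection required of genes that were higher at 24 h.

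SLC7A11, the cystine importer, was at 308 and 256 CPM on drug and changed by -1.94 between 24 and 72 h. LAMA4, a laminin chain, went from 30.2 and 28.8 CPM on drug to 9.83 and 10.7 CPM at 24 h and 38.8 and 38.2 CPM at 72 h, a later change of 1.91. TM7SF2, a sterol reductase, went from 1.94 and 1.77 to 1.05 and 1.08 and then 4.30 and 3.60 CPM, a later change of 1.88.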

How the results depend on the processing

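The count of 9371 genes at 72 h against on drug lay between 7741 (DESeq2) and 9801 (all 16 libraries) under the settings that kept the null of no change, and between 8288 and 8517 with 1 library left out. Tested against a 1.5-fold change (glmTreat) it was 4387, and the counts against 24 h, against 120 h and against the mean of both were 1768, 550 and 133. DESeq2 called 2982 genes against 120 h and 1646 against the mean. Leaving out 1 library gave 5837 to 6200 genes against 24 h, 2851 to 4052 against 120 h and 1478 to 2851 against the mean; these fits assume that the lone library varies like the other groups. The count of called list members, 598, lay between 416 and 609 over 13 alternatives.

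With the replicate number as a block the counts were 9632 against on drug, 7453 against 24 h, 5041 against 120 h and 3384 against the mean. The differences between replicates correlated at -0.02 for on drug and 72 h, at 0.13 for 24 and 72 h, and at 0.14 both for 72 and 120 h and for 24 and 120 h. The 3 off-drug pairs of groups are thus over 0.1. Sample titles carry the letter B or C for the libraries of every group, and the replicate number follows these letters. What the letters stand for is not given in the sources used here. With 2 libraries a group the numbers do not establish a pairing, so the block stays an alternative.

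The groups hold 2 libraries each, with 4 residual degrees of freedom. Libraries at 72 h were the shallowest. Replicates differed by more than sampling noise in every group. The chi-square per degree of freedom was 2.56 on drug, 3.15 at 24 h, 3.96 at 72 h and 5.61 at 120 h. Genes under the filter were not tested, and a count of 0 sets only a bound.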

Other observations

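A few genes were seen in 1 library at 72 h and not in its replicate, and belong in no comparison. TP53INP1 had 24 counts in library 2 at 72 h and none in the other 7 libraries of the line, the only gene with at least 10 counts in 1 library and none elsewhere. COL4A2, a basement membrane collagen, had 3.22 CPM in the same library and no counts in library 1, and its partner COL4A1 had 0.663 CPM and none.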
